A study of Mus musculus with 23 samples.

Results

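Hao2 and Hao1 are the hydroxyacid oxidases of the peroxisome, and Agxt and Grhpr are enzymes that act on glyoxylate, which Hao1 forms. These 4 genes are described here in mouse liver. They were chosen by gene symbol, and each was read by 1 probe set, so that 4 of the 38385 probe sets on the array were followed. No probe set with several gene symbols names any of them. The choice was made with earlier results known. Hao2 had already passed the test between knockout and wild-type females and in the average over the sexes. The other 3 genes were taken with it, Hao1 as an oxidase of the same kind and Agxt and Grhpr as enzymes of glyoxylate. For Hao2, the KO and WT values of females, their average with the males, the difference between the sexes in the KO effect and the difference between females and males are therefore given as a description, with no test.

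The series measured RNA from the livers of 23 mice, with 1 array per sample. There were 6 KO and 6 WT females, and 6 KO and 5 WT males; the WT males carry the numbers 2 to 6. KO mice lacked GPR86, the ADP receptor encoded by P2ry13, and WT mice carried it; the purpose was to find liver transcripts that differ after its ablation. The sources used here do not give strain, age, diet, litter or how the deletion was made. All values below are log2 of the deposited RMA intensity unless another unit is named. P2ry13 itself read 5.06 to 5.22 in female KO and 6.03 to 6.42 in female WT, and 5.07 to 5.34 in male KO and 5.80 to 6.34 in male WT, with no overlap in either sex. Its KO values were lower but stayed above 3.69, the background level defined below for Hao2.

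Hao1, glycolate oxidase, turns glycolate into glyoxylate in the peroxisomes of hepatocytes and releases hydrogen peroxide, which catalase removes. Hao2 carries out the same kind of flavin-dependent reaction on longer 2-hydroxy acids. Agxt transaminates glyoxylate to glycine with alanine as the donor, and Grhpr reduces glyoxylate back to glycolate and hydroxypyruvate to glycerate. Glyoxylate that escapes both is oxidised to oxalate by lactate dehydrogenase, and loss of AGXT or GRHPR in people causes primary hyperoxaluria. Many liver enzymes of the mouse are expressed at different levels in females and males, which is known to follow the sex-specific pattern of growth hormone release.

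The starts of the 2 oxidase genes are shown because their transcripts had opposite sex differences. Each sequence runs 5′ to 3′ on the gene's strand from 250 bases before the RefSeq start to 50 after it, from the RefSeq promoter table of GRCm38.p6. Capitals mark matches to 4 motifs of liver factors, searched on both strands: TTCNNNGAA (STAT5), GTTAAT (the core that an HNF1 site holds in each arm), TTGCNNAA (C/EBP) and ATTGAT (the core of an HNF6 site). The Hao2 window lies on the minus strand at chr3:98893181-98893480 and the Hao1 window on the minus strand at chr2:134554303-134554602.
Hao2: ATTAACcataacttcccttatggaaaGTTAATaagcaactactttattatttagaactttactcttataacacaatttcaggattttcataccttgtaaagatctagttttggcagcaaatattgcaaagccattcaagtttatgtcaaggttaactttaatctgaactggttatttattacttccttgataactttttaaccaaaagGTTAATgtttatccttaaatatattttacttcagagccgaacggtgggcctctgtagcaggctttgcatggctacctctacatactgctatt
Hao1: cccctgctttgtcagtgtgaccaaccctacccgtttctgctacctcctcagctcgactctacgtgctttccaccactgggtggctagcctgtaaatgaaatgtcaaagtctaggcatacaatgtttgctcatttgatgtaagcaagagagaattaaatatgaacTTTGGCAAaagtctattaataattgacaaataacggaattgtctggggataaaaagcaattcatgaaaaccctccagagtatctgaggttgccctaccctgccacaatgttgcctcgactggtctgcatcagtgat

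The Hao2 window held 3 matches to the HNF1 core, at positions -250, -224 and -42 from the start, and none to the other 3 motifs. Of all 32851 promoter windows in the table, 7.1% held at least 1 such core. The Hao1 window held 1 C/EBP match, at position -86, a motif found in 10.8% of all windows. Agxt had 1 HNF6 match at position -41, a motif in 7.5% of windows, and Grhpr had no match to any of the 4. No member's window held the STAT5 motif, which 8.3% of all windows held. A match is a run of letters and not a measured site.

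Hao2 was much higher in KO than in WT females. It read 9.16, 9.37, 9.15, 9.51, 8.88 and 8.67 in female KO replicates 1 to 6, against 5.25, 5.47, 5.99, 6.89, 8.23 and 7.09 in female WT replicates 1 to 6. Every KO female lay above every WT female, and WT replicate 5, the highest of its group, lay 0.44 below the lowest KO female. The group means were 9.12 ± 0.31 in female KO and 6.49 ± 1.13 in female WT (SD, n = 6 each), a difference of 2.64 (SE 0.30, 6.22-fold higher in KO). This comparison called 21 of all 38385 probe sets, 0.0547%, with Hao2 among them by the way it was chosen.

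The female WT arrays were far from uniform for this transcript. In linear intensity they ran from 38.1 in replicate 1 to 300.8 in replicate 5, a 7.90-fold range, whereas the female KO arrays ran from 408.4 to 728.3, a 1.78-fold range. Only 12 of the 38385 probe sets had a larger SD than Hao2 among the female WT arrays, while 1303 did among the female KO arrays. The 2 groups thus differed in spread as well as in mean, and the standard error above comes from a spread shared over all 4 groups.

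In males Hao2 gave no signal above background in either genotype. It read 2.80, 2.70, 2.52, 3.13, 2.61 and 2.52 in male KO replicates 1 to 6, against 2.81, 2.80, 2.60, 2.85 and 2.93 in male WT replicates 2 to 6. Background was taken from the 4 probe sets of Y-linked genes on the 12 female arrays, which read 2.53 to 3.69, and all 11 male values lay at or below the top of that range. The fitted difference between male KO and male WT was -0.08 (SE 0.32, 95% interval -0.74 to 0.57, limma, adjusted p = 0.987). That SE rests on the spread shared over all 4 groups, whereas the SDs were 0.23 in male KO and 0.12 in male WT. With both groups at background no fold can be given, and a change of the transcript could not have been measured. The average of both sexes, 1.28 (SE 0.22), and the difference of the KO effects, 2.72 (SE 0.44), therefore hold little beyond the female values: with males set to no difference the average would be 1.32.

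Hao1 showed no KO difference that passed the test in either sex. In female KO it read 10.24 at the lowest, 10.69 at the median and 10.83 at the highest, against 10.51, 10.68 and 10.84 in female WT. In male KO it read 11.36, 11.50 and 11.71 (lowest, median and highest), against 11.52, 11.67, 11.49, 11.44 and 11.53 in male WT replicates 2 to 6. The KO and WT arrays overlapped in both sexes. KO minus WT was -0.06 in females (SE 0.08, 95% interval -0.23 to 0.11, limma, adjusted p = 0.957) and -0.02 in males (SE 0.09, 95% interval -0.20 to 0.16, limma, adjusted p = 0.987).

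Agxt, the aminotransferase, had the KO and WT females closest to separation among the other 3 genes. It read 11.53, 11.71 and 11.84 (lowest, median and highest) in female KO, against 11.35, 11.55 and 11.68 in female WT, and 4 of the 6 KO females lay above all WT females. The difference was 0.15 (SE 0.08, 95% interval -0.01 to 0.31) and did not pass (limma, adjusted p = 0.858). In males it read 10.96, 11.16 and 11.39 (lowest, median and highest) in KO, against 11.29, 11.19, 11.27, 11.32 and 11.22 in WT replicates 2 to 6, a difference of -0.10 (SE 0.08, limma, adjusted p = 0.895). The KO effect was 0.25 larger in females than in males (SE 0.11), with an unadjusted p of 0.0344 and an adjusted p of 0.962 (limma).

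Grhpr, the reductase, overlapped between genotypes in both sexes. It read 11.12, 11.27 and 11.38 (lowest, median and highest) in female KO, against 11.15, 11.32 and 11.46 in female WT. In males it read 11.53, 11.79 and 11.98 in KO, against 11.52, 11.75, 11.76, 11.69 and 11.90 in WT replicates 2 to 6. KO minus WT was -0.06 in females (SE 0.08, 95% interval -0.22 to 0.10, limma, adjusted p = 0.945) and 0.05 in males (SE 0.08, 95% interval -0.12 to 0.22, limma, adjusted p = 0.960).

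Of Hao1, Agxt and Grhpr, 0 of 3 passed between KO and WT in females, in males, averaged over the sexes or for the difference of the KO effects (limma). At an unadjusted p under 0.05 the count was 0 of 3 in females, in males and in the average, and 1 of 3, Agxt, for the difference. The adjusted plain analysis of variance also called 0 in each sex. Over all probe sets the males had 0.0313% called, the average 0.0808% and the difference of effects 0.0104%, and a count of 0 among 3 lies at that background. The 95% intervals of these 3 genes lay between -0.23 and 0.31 in females and between -0.26 and 0.22 in males.

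**Figure D1:**
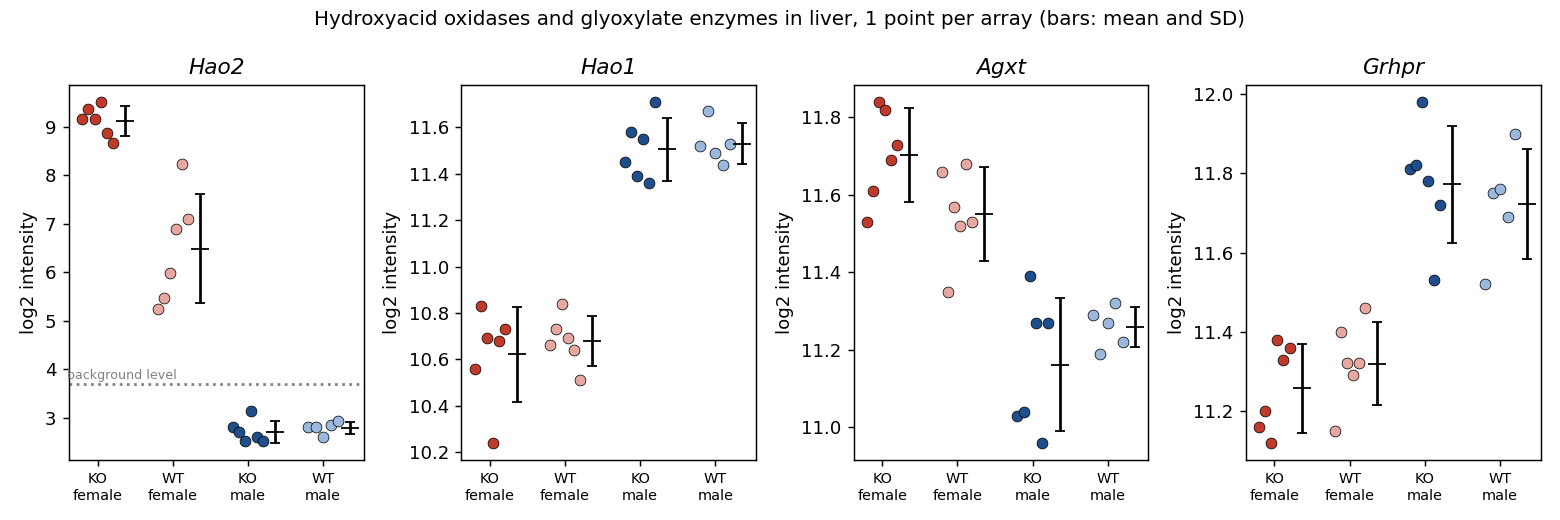
Log2 intensity of Hao2, Hao1, Agxt and Grhpr on each of the 23 arrays, by group; points are arrays, bars the mean and SD, and the dotted line in the first panel the background level of 3.69. Hao2 separates the KO females from the WT females and lies at background in all males, while the other 3 genes separate the sexes and not the genotypes; each panel has its own vertical scale, which does not start at 0.

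All 4 genes separated the sexes in both genotypes, 2 in each direction, by as little as 0.03 for Agxt in WT. How many of all probe sets separate the sexes in this way was not counted. Hao2 and Agxt were higher in females, and Hao1 and Grhpr were higher in males. Females minus males averaged over genotypes gives KO and WT equal weight, and so takes in the KO females whose level brought Hao2 into view. For Hao2 it is a description, with no test. The test was made for Hao1, Agxt and Grhpr, of which 3 of 3 passed (limma). The contrast called 4036 of 38385 probe sets, 10.5%, with 5.96% higher in females and 4.55% lower.

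Hao2 had by far the widest difference of the 4. Since the males were at background, the fold is a lower bound: set against 3.69, the mean of KO females was at least 43.1-fold higher than that of KO males, and the mean of WT females at least 6.90-fold higher than that of WT males. Averaged over genotypes the bound was at least 17.3-fold, which the KO females raise above that of WT. All 12 females lay above all 11 males, and the lowest female, WT replicate 1 at 5.25, was 2.32 above the highest WT male.

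Hao1 ran the other way, at 10.62 ± 0.21 in KO females against 11.51 ± 0.13 in KO males (SD, n = 6 each), and at 10.68 ± 0.11 in WT females (n = 6) against 11.53 ± 0.09 in WT males (n = 5). Females minus males was -0.87 (SE 0.06, limma, adjusted p = 2.58e-11), or 1.82-fold lower in females. All females lay below all males, with a gap of 0.53 in KO and 0.60 in WT. The sex difference of the glycolate oxidase was thus nearly equal in the 2 genotypes, -0.88 in KO and -0.85 in WT.

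Agxt averaged 11.70 ± 0.12 in KO females against 11.16 ± 0.17 in KO males (SD, n = 6 each), and 11.55 ± 0.12 in WT females (n = 6) against 11.26 ± 0.05 in WT males (n = 5). Females minus males was 0.42 (SE 0.06, 1.33-fold higher in females, limma, adjusted p = 4.76e-06). Females and males did not overlap in either genotype, although the gap in WT was only 0.03. Grhpr averaged 11.26 ± 0.11 in KO females against 11.77 ± 0.15 in KO males, and 11.32 ± 0.11 in WT females against 11.72 ± 0.14 in WT males. Its difference was -0.46 (SE 0.06, 1.38-fold lower in females, limma, adjusted p = 9.61e-07), again with no overlap, at gaps of 0.15 in KO and 0.06 in WT.

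**Figure D2:**
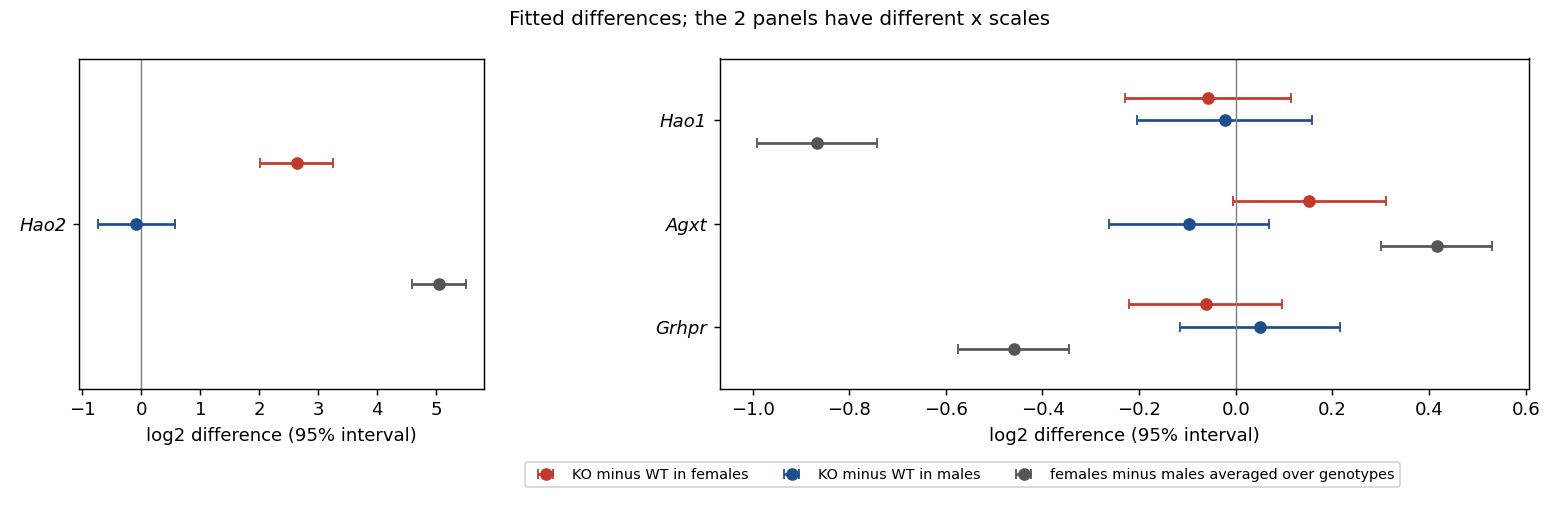
Fitted log2 differences with 95% intervals for KO minus WT in females, KO minus WT in males, and females minus males averaged over genotypes; the panel of Hao2 has a wider scale than that of Hao1, Agxt and Grhpr. The Hao2 sex difference is drawn as fitted, 5.05, and rests on male values at background. For Hao2 the intervals of KO minus WT in females and of the sex difference are a description and not a test. For the other 3 genes the KO intervals include 0 and the sex intervals do not.

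The tissue was checked with marker lists. All 5 measured hepatocyte markers were strong, from 10.72 for the lowest, Pck1, to 14.73 for Alb, and 0 of 5 passed between the sexes or genotypes (limma, 1 at an unadjusted p under 0.05 between the sexes and 0 between KO and WT). Kidney, where Hao2 is also known to be expressed, was looked for with 4 proximal tubule markers: their summed intensity was 71 to 97 in KO females, 70 to 84 in WT females, 78 to 88 in KO males and 84 to 97 in WT males. Of the 4, Miox lay at background in every array, and 1 marker was lower in females. The others had group means above the background level of 3.69: Kap at 5.35 to 5.52, Slc22a6 at 3.97 to 4.12 and Lrp2 at 3.75 to 3.98. Whether kidney RNA was present was not tested.

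Markers of other liver cells moved with sex, a comparison that called 10.5% of all probe sets. All 6 Kupffer cell markers were higher in females, with summed intensities of 3810 to 4942 in KO females and 3658 to 4386 in WT females, against 2617 to 3567 in KO males and 2648 to 3419 in WT males. Higher in females were also 3 of 6 endothelial markers (sums of 2848 to 3322 in KO females and 2983 to 3373 in WT females, against 2458 to 2722 in KO males and 2418 to 2765 in WT males) and 3 of 6 stellate cell markers (5049 to 6411 in KO females and 4945 to 5778 in WT females, against 4307 to 5302 in KO males and 4596 to 5152 in WT males). The stellate cell marker Lrat went the other way without passing, at 7.28 in KO females and 7.40 in WT females, against 7.64 in KO males and 7.61 in WT males. Of 5 lymphocyte markers 2 were higher in females, and of 5 cholangiocyte markers 1 was lower. Their part in the sex differences of the 4 enzymes was not tested. Over all lists, 0 of 37 markers passed between KO and WT in females or males (limma, 1 and 3 at an unadjusted p under 0.05). In bulk liver, a change in the number of expressing cells and a change in RNA per cell cannot be told apart.

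The wider glyoxylate and glycolate pathway showed the same division as Hao1, Agxt and Grhpr: sex differences in both directions and no called KO effect. Of 24 measured genes, 5 were higher and 4 lower in females, against 5.96% and 4.55% of all probe sets. Prodh2, the hydroxyproline dehydrogenase that starts a further route to glyoxylate, was 0.40 higher (SE 0.07, limma, adjusted p = 0.000253), and Sardh, sarcosine dehydrogenase, and Shmt1, which exchanges serine and glycine, were each 0.32 higher (limma, adjusted p = 0.00123 and 0.000157). Glyctk, glycerate kinase, which uses the product of Grhpr, was 0.32 higher and Ddo, a peroxisomal oxidase of D-aspartate, 0.33 higher (limma, adjusted p = 0.00601 and 0.0173).

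Lower in females were Ldhd, the D-lactate dehydrogenase, at -0.36, Glo1, which detoxifies methylglyoxal, at -0.35, Agxt2, a mitochondrial relative of Agxt in function, at -0.28, and Cat, catalase, at -0.20 (limma, adjusted p = 1.58e-05, 0.0366, 0.01 and 0.00679). Hoga1, the aldolase that releases glyoxylate from hydroxyproline breakdown, did not pass, at -0.06 (limma, adjusted p = 0.669), nor did Ldha, the lactate dehydrogenase subunit that can form oxalate, at -0.09 (limma, adjusted p = 0.306). The median over the 24 genes was 0.02, against -0.01 over all probe sets.

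**Figure D3:**
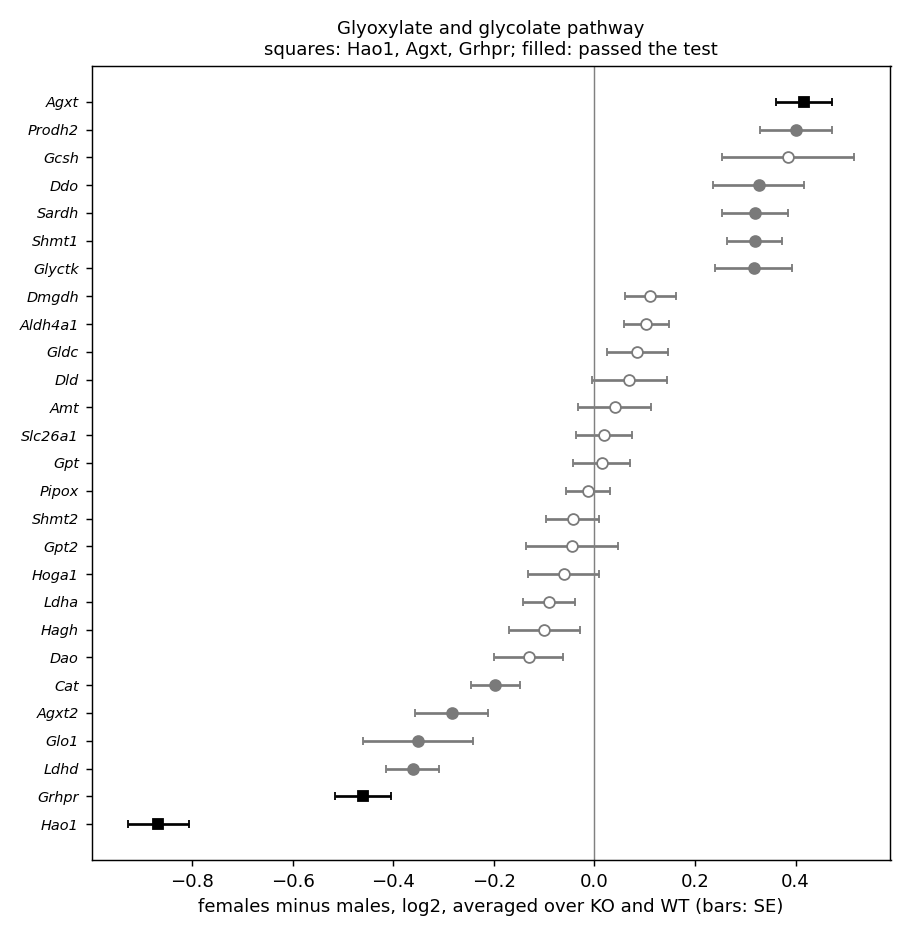
Females minus males, log2, averaged over KO and WT, for the 24 measured genes of the glyoxylate and glycolate list (circles) and for Hao1, Agxt and Grhpr (squares); bars are standard errors and filled symbols passed the test. Agxt lies at the top at 0.42 and Hao1 at the bottom at -0.87; Hao2 lies far outside the scale and is not drawn.

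Between KO and WT females, 0 of the 24 genes passed (limma), against 0.0547% of all probe sets, and 7 had an unadjusted p under 0.05. The share of all probe sets under that unadjusted p was not counted, so the 7 cannot be set against it. The median of the 24 genes was 0.10, with 18 of 24 positive, against a median of -0.01 over all probe sets. The smallest p belonged to Gpt2, the mitochondrial alanine aminotransferase, which read 10.18 ± 0.23 in KO females and 9.81 ± 0.35 in WT females (SD, n = 6 each; limma, adjusted p = 0.773). Next was Dmgdh, dimethylglycine dehydrogenase, at 0.19 higher (limma, adjusted p = 0.806). Between KO and WT males, 0 of 24 passed (limma), 1 had an unadjusted p under 0.05, and the median was -0.03. Values for Ldhd were 9.71 ± 0.15 in KO males (n = 6) and 9.54 ± 0.11 in WT males (n = 5), with an adjusted p of 0.794 (limma).

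No gene of the 2 peroxisomal lists passed between KO and WT within a sex, where 0.0547% of all probe sets passed in females and 0.0313% in males. Of 33 measured matrix enzymes, 0 passed in females (limma, 1 at an unadjusted p under 0.05, median 0.01) and 0 in males (limma, 3 at an unadjusted p under 0.05, median -0.02). Of 22 genes of the peroxisome membrane and protein import, 0 passed in females (limma, 1 at an unadjusted p under 0.05, median 0.06) and 0 in males (limma, 1 at an unadjusted p under 0.05, median -0.03). Acot4, an acyl-CoA thioesterase of the matrix list, was 0.28 higher in KO females at an unadjusted p of 0.00344 (limma, adjusted p = 0.660). Pex5, the receptor that imports most matrix enzymes, was 0.19 higher in KO females (limma, adjusted p = 0.789).

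Between the sexes, 8 of the 33 matrix enzymes were higher and 9 lower in females, against 5.96% and 4.55% of all probe sets. Acot4 was 1.38 higher in females (limma, adjusted p = 1.86e-15) and Hacl1, a lyase of 2-hydroxyacyl-CoA, 0.41 higher (limma, adjusted p = 5.31e-07). Nudt7, a coenzyme A hydrolase, was at -1.20 and Ephx2, the soluble epoxide hydrolase, at -0.59 (limma, adjusted p = 4.71e-10 and 6.42e-09). Of the 22 membrane and import genes 3 were higher and 3 lower. Abcd2, a transporter of very long fatty acids into peroxisomes, stood out at 9.13 ± 0.23 in KO females and 9.0 ± 0.16 in WT females, against 4.97 ± 0.46 in KO males and 4.92 ± 0.35 in WT males, 4.12 higher in females (SE 0.12, limma, adjusted p = 2.09e-20). Unlike Hao2, Abcd2 had nearly the same level in KO and WT females.

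Genes known for a sex bias in mouse liver were set beside Hao2 as a comparison, from a list chosen with earlier results of these data known. Of 16 female-biased genes, 15 were higher in females here, with a median of 3.62, and all 16 read higher in KO than in WT females, with a median of 0.49, although 2 passed: Sult2a1 and Sult2a2, sulfotransferases of steroids and bile acids. Of 11 male-biased genes, 10 were lower in females. In KO females 2 of the 11 fell and passed, Hsd3b5 and Cyp2d9, and 2 read higher than in WT, with a median of -0.48. At an unadjusted p under 0.05 the counts between KO and WT females were 9 of 16 and 7 of 11 (limma). Between KO and WT males, 0 of 16 and 0 of 11 passed (limma, 1 and 0 at an unadjusted p under 0.05). Of all probe sets, 0.0547% passed between KO and WT females and 0.0313% between KO and WT males. Between the sexes 5.96% were higher and 4.55% lower in females. The share of all probe sets at an unadjusted p under 0.05 was not counted. As the lists were chosen with earlier results known, these counts describe them and lend Hao2 no support. Cyp2b9, a female-specific monooxygenase, read 11.75 in KO females and 11.69 in WT females, so not every strongly female-biased gene read clearly higher in KO females.

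Hao2 lies on chromosome 3, as P2ry13 does, with 428 protein-coding genes between them in the RefSeq gene order of GRCm38.p6. Hao1, Agxt and Grhpr lie on chromosomes 2, 1 and 4. On one side Hao2 adjoins the Hsd3b cluster of hydroxysteroid dehydrogenases, and on the other a stretch that begins with Wars2, a mitochondrial tRNA synthetase. The 5 measured genes on the Hsd3b side differed among themselves between KO and WT females: Hsd3b1, next to Hao2, read 3.71 in KO and 3.60 in WT, near the background level; Hsd3b6 was at -0.58, Hsd3b2 at 0.93 and neither passed, while Hsd3b3 fell by 1.40 and Hsd3b5 fell by 3.73 (limma, adjusted p = 0.474 for Hsd3b6 and Hsd3b2, 0.0286 for Hsd3b3 and 1.7e-08 for Hsd3b5). Near-identical sequence within the Hsd3b family makes the split of signal among its members uncertain.

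On the other side, Wars2, Tbx15, Spag17, Wdr3 and Gdap2 lay between -0.05 and 0.22 in KO females, and none passed. Of the 10 neighbours, 0 were called higher and 2 lower in females, and 0 higher and 1 lower, Hsd3b6, in males (limma), with 4 and 3 at an unadjusted p under 0.05. Averaged over the sexes, 1 rose, Hsd3b2 at 0.99 (SE 0.18, limma, adjusted p = 0.0133), and 3 fell. Within a sex its values were 0.93 in females and 1.05 in males, and neither passed (limma, adjusted p = 0.474 and 0.305). Around the other 3 members, 0 of 30 neighbours passed between KO and WT in females or males (limma, 1 and 3 at an unadjusted p under 0.05), with values from -0.12 to 0.34 in females. Over all probe sets, 0.0547% were called in either direction in females, 0.0313% in males and 0.0808% in the average. How many of them had an unadjusted p under 0.05 was not counted.

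**Figure D4:**
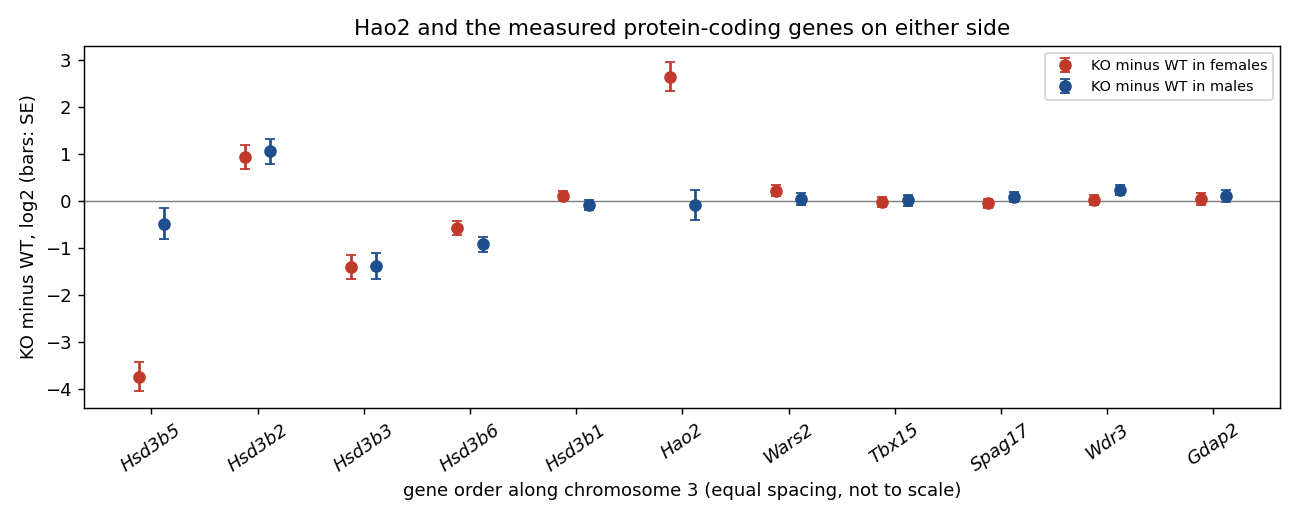
KO minus WT on the log2 scale, in females and in males, for Hao2 and the 5 measured protein-coding genes on each side of it along chromosome 3; bars are standard errors and spacing is equal, not to scale. Hao2 at 2.64 in females stands between Hsd3b genes that differ in both directions and 5 genes that lie near 0.

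By likeness over all 23 arrays among 10827 named genes, Hao2 was closest to Sult2a1 (Pearson r = 0.962), Tafa2 (0.961), Eci3 (0.957), Cyp2c39 (0.952), Atp6v0d2 (0.948), St3gal6 (0.947), Aldh1b1 (0.946) and Pon1 (0.941). All 8 were higher in females and all 8 had a higher mean in KO than in WT females, so these correlations mostly restate the group means. Eci3, an enoyl-CoA isomerase of the peroxisome, read 6.97 ± 0.27 in KO females and 6.12 ± 0.36 in WT females, against 4.43 ± 0.34 in KO males and 4.52 ± 0.40 in WT males. Sult2a1 read 9.38 ± 0.36 in KO females and 5.94 ± 0.99 in WT females, against 2.69 ± 0.16 in KO males and 2.75 ± 0.31 in WT males.

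With group means removed, a different set came closest. Msmo1, a sterol methyl oxidase, and Mvd, mevalonate diphosphate decarboxylase, both of cholesterol synthesis, had r of 0.747 and 0.742 with the deviations of Hao2, followed by Yif1a (0.727), Gamt (0.724), Timeless (0.713), Dcun1d4 (0.703), and Cyp8b1 (0.688) and Cyp7a1 (0.667), which are enzymes of bile acid synthesis. Over the 12 female arrays, where Hao2 was measurable, r was 0.90 for Msmo1 and 0.84 for Mvd, and without female WT replicate 5 it was 0.79 and 0.77. These genes are the highest of 10827, and arrays share amplification and normalization, so the values describe these arrays.

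The spread of Hao2 among WT females can be followed array by array. Msmo1 read 12.03, 12.29, 12.38, 12.50, 12.80 and 12.46 in WT replicates 1 to 6, the same order as Hao2 except that replicates 4 and 6 change places. Msmo1 was picked as the closest gene by deviations on these arrays, so a similar order follows from the choice. Sult2a1 read 6.67, 4.14, 5.99, 6.89, 5.65 and 6.28 in the same arrays and did not share that order: its r of deviations with Hao2 over the 12 females was 0.14, and 0.36 without female WT replicate 5. For Hsd3b5 the r was -0.33, and 0.19 without female WT replicate 5, and for Hsd3b3 it was -0.54, and -0.34 without that array. Genes that separated KO from WT females together with Hao2 therefore did not all vary with it inside the groups.

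**Figure D5:**
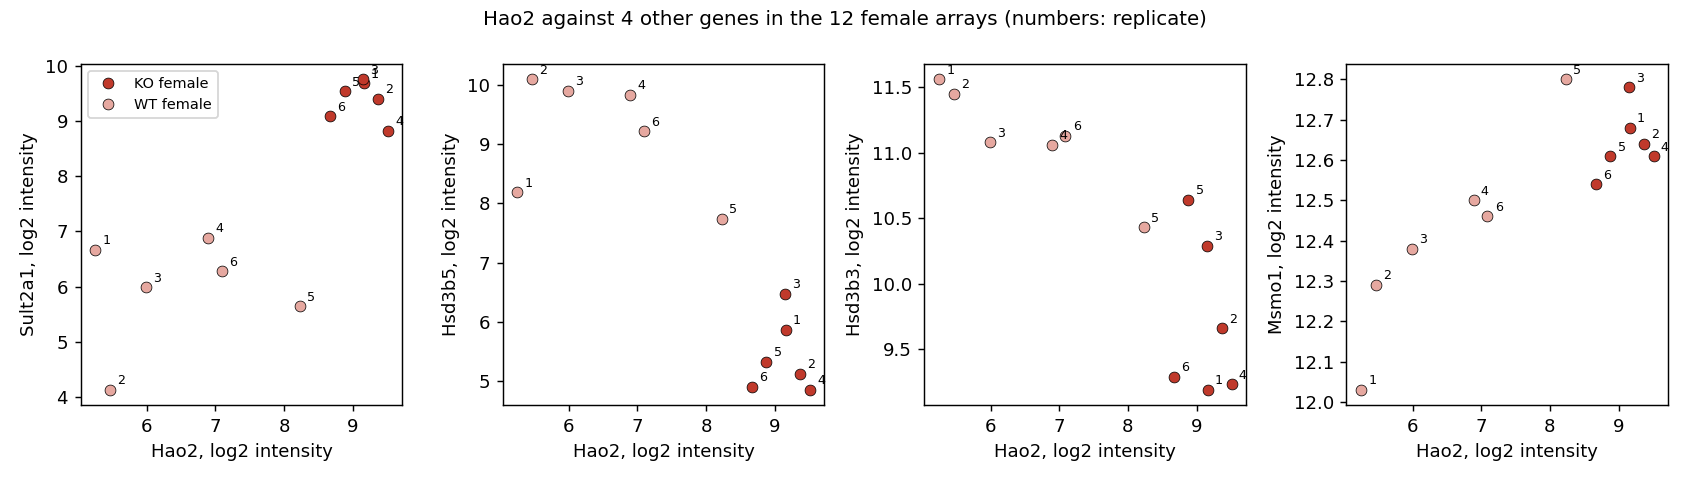
Log2 intensity of Hao2 (x axis) against Sult2a1, Hsd3b5, Hsd3b3 and Msmo1 (y axes) on the 12 female arrays, numbered by replicate. KO females cluster at high Hao2. Among WT females Msmo1, picked for its correlation with Hao2, climbs with it, while Sult2a1 does not follow the same order.

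The 4 members were related to each other mainly through their group means. Over all 23 arrays Hao2 had r of -0.91 with Hao1, 0.87 with Agxt and -0.83 with Grhpr, and with group means removed these were -0.25, 0.18 and 0.12. Hao1 and Grhpr, both higher in males, had r of 0.83 over all arrays and -0.16 with group means removed. Nearest to Hao1 over all arrays were Ttc39c (0.969), Abcb10 (0.965) and Scp2 (0.962), a peroxisomal thiolase and sterol carrier. Nearest to Agxt were Rdh9 (0.910), Btd (0.906) and Sult1a1 (0.905), and nearest to Grhpr were Echdc2 (0.916), C8a (0.908) and Aox1 (0.906).

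With group means removed, Hao1 was closest to Alg6 (0.847), Ezh2 (0.771) and Socs4 (0.770), Agxt to Antxr2 (0.669), Erc1 (0.667) and Prps1 (0.647), and Grhpr to Acd (0.857), Tmbim1 (0.837) and Cdk9 (0.820). None of these 9 genes is in the glyoxylate or peroxisomal lists.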

How the data were processed

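The authors deposited a table of linear-scale intensities that RMA produced, per the submitters' processing notes, with no version or settings in the sources used here. Array medians lay between 19.5 and 21.1, and no further scaling was applied. Groups came from the sample titles. Values were converted to log2 and fitted over all 38385 probe sets and 23 arrays with limma 3.58.1 in R 4.3.3 (1 mean per group, 19 residual and 7.61 prior degrees of freedom); adjustment was by Benjamini-Hochberg over the whole table, with 0.05 as the threshold for passing. Errors are SDs for means and limma's standard errors for differences. The number of arrays limits the precision. Names came from the platform annotation (24478 probe sets have 1 symbol), and gene order came from RefSeq. Lists use the brightest probe set of each gene, and likeness candidates lie above the median level of 4.35. The members, lists and tests were chosen with earlier results of these data known. Named genes follow a fixed rule: members, list genes that pass or have the smallest p, the 5 measured neighbours on each side, and the closest genes by correlation; Hoga1, Ldha, Cyp2b9, Abcd2, Eci3 and Pex5 were singled out with their values seen where the rule did not name them. The fit was tested on simulated data. The sex difference of Hao2 was planned as a test and is given as a description, since it takes in the KO females.

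Alternatives were a filter on low values (19192 probe sets kept), quantile normalization, equal medians, robust variance with an intensity trend, array weights, a block for the replicate number, only the compared groups, the plain analysis of variance that the design text names, and leaving out each array. Of 33 pairs of same-numbered arrays, 3 had a correlation of deviations above 0.1 (range -0.17 to 0.21). Differently numbered arrays were not compared, so this cannot decide whether the numbers pair the samples, and the main fit used no pairing. Plots used matplotlib 3.10.9 (Python 3.11.15).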

Additional observations from a re-analysis of the deposited data

How the results depend on the processing

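For Hao1, Agxt and Grhpr no call was gained or lost under any alternative run, leaving out each array included: the number called was 0 in every KO comparison and 3 between the sexes throughout. Hao2 in females lay between 2.61 with quantile normalization and 2.74 with array weights, and between 2.39 and 2.98 with 1 array left out. Its average over the sexes lay between 1.15 and 1.45, the difference of KO effects between 2.47 and 3.07, the male value between -0.17 and -0.05 and the fitted sex difference between 4.87 and 5.17 when 1 array was left out. With the replicate number as a block, a pairing not shown here, the sex difference of Hao2 was 5.09 and its male difference -0.01. No call of the other 3 genes changed with that block. Hao2 itself was not tested in females, in the average or for the difference of effects, so its values there show only how far the estimate moved. Values near 0 changed sign without passing: Hao1 in males was 0.0113 with quantile normalization, and Grhpr averaged over the sexes was 0.0065 with equal medians and 0.0014 with the replicate block. With 1 array left out, Hao1 ran from -0.0989 to 0.0178 in females, from -0.0643 to 0.013 in males and from -0.0756 to 0.0411 for the difference of effects, and Grhpr from -0.0016 to 0.0976 in males and from -0.0321 to 0.0175 in the average. Since males lie at background for Hao2, its male difference has no reading as a fold under any setting.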

Other observations

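Outside the glyoxylate enzymes, Abcd3, a transporter of the peroxisome membrane, was the listed peroxisomal gene with the smallest p between KO and WT males. It read 11.78 ± 0.06 in KO males (SD, n = 6) and 12.37 ± 0.40 in WT males (n = 5), a difference of -0.59 (SE 0.12), and did not pass (limma, adjusted p = 0.0776). In females it read 12.13 ± 0.09 in KO and 12.20 ± 0.16 in WT (SD, n = 6 each). Cyp7a1, the rate-limiting enzyme of bile acid synthesis, read 9.59, 9.62, 10.12, 9.50, 9.72 and 9.59 in female KO replicates 1 to 6, against 7.88, 8.01, 9.33, 10.27, 10.33 and 9.16 in female WT replicates 1 to 6. The WT females that were lowest for Hao2, replicates 1 and 2, were also lowest for Cyp7a1. Cyp7a1 was picked for its correlation with the deviations of Hao2 on these arrays, so this likeness follows from the choice.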
